A study of Mus musculus with 119 samples.

Results

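The 34 genes described here encode a glucose transporter and enzymes of glycolysis, the oxygen-sensing factor HIF-1α with 2 of its prolyl hydroxylases, and genes known to respond to low oxygen. They were listed by symbol. Every listed symbol was present among the 18098 genes of the deposited expression table, and all 34 passed the filter on low values. The genes were followed in mouse bone marrow–derived macrophages (BMDMs) through each genotype, inhibitor and time of LPS.

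The series holds RNA-seq libraries of 25 groups of C57BL/6 BMDMs, kept in 1% serum overnight and given LPS, a TLR4 ligand, at 100 ng/ml or none. Wild-type (WT) cells gave 22 libraries, 6 each at 0, 0.5 and 1 h of LPS and 4 at 2 h. *Map3k8* D270A/D270A cells, which carry a kinase-inactive form of TPL-2 in every cell, gave 24, with 6 at each of these times. *Elk1*-/-*Elk4*-/- cells, which lack 2 ternary complex factors (transcription factors phosphorylated by ERK), gave 16, with 4 at each time. *Nfkb1* SSAA/SSAA cells, whose p105 lacks the serines phosphorylated by the IκB kinase complex, gave 18, with 6 each at 0, 0.5 and 1 h. WT cells treated for 10 min with the MKK1/2 inhibitor PD0325901 at 0.1 µM before LPS gave 6 libraries each at 0.5 and 1 h, and the inhibitor alone for 10, 40 or 70 min gave 3 each. DMSO for 10 min without LPS gave 3. WT cells treated for 10 min with the RSK1/2 inhibitor RSKi47 at 2 µM gave 4 libraries without LPS, 3 at 0.5 h and 4 each at 1 and 2 h. The plots call the mutant arms TPL, dKO and p105AA. All arms were set against the same WT libraries, which had no solvent and which the paper compares with *Map3k8* D270A/D270A cells. The labels do not say which arms shared an experiment. For the other arms, experiment and genotype or inhibitor thus cannot be told apart at a single time. A difference between LPS responses (each arm's change from its own unstimulated cells) is free of a constant offset between experiments.

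Macrophage identity was clear in the values. Over all libraries *Csf1r* lay between 14.81 and 15.51, *Adgre1* between 14.53 and 15.79, *Cd68* between 15.14 and 15.67 and *Lyz2* between 17.47 and 18.70. *Elk1* was 9.14 in unstimulated WT and 6.36 in *Elk1*-/-*Elk4*-/- cells as group means, and *Elk4* was 7.72 and 5.71. The other alleles change amino acids only, so their mRNA does not check the genotype. No pair of libraries held identical values. The p105AA replicate 2 library at 1 h stood farthest from its group, followed by RSKi47 replicate 4. Values are log2 numbers as deposited, and the sources used here do not give the step that made them. The depth of each library is unknown and that step may have drawn differences together or put some on another logarithm, so no difference is turned into a fold. The filter on low values and the marker sums take the values as log2. In bulk RNA, fewer cells of a type and less RNA per cell cannot be told apart.

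Glycolysis turns glucose into pyruvate in the cytosol and yields ATP without oxygen. Glucose enters through transporters, is trapped by hexokinases, and is committed at the phosphofructokinase step, which fructose bisphosphate made by PFKFB enzymes speeds. HIF-1α is held low by prolyl hydroxylases while oxygen is present. When stabilised it pairs with ARNT and binds a short core sequence, the hypoxia response element, in genes of glycolysis, vessel growth and mitophagy. LPS is known to raise *Hif1a* mRNA in macrophages through NF-κB, and LPS-stimulated macrophages are known for increased glycolysis.

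The core of that element was looked for in the 250 bases before each start that RefSeq lists (GRCm38.p6), which 32 of the 34 genes matched. The letters ACGTG or GCGTG, on either strand, stood before 29 of the 32 genes (90.6%), against 41.5% of all 27025 genes and 61.6% of the 9153 tested genes matched. For ACGTG alone the shares were 59.4%, 18.5% and 25.3%, and for GCGTG 65.6%, 30.9% and 50.2%. Letters of the AP-1 site (TGANTCA) stood before 2 of the 32 genes (6.25%, against 7.82% of all genes and 5.54% of tested genes), and those of the CREB site (TGACGTCA) also before 2 (6.25%, against 1.77% and 3.19%). The CArG box of serum response factor, partner of ELK1 and ELK4, stood before 0 of the 32 and 1.62% of all and 1.28% of tested genes, which says only that these letters are not in this window. Genes with several listed starts had several windows. A match is a description of the letters and no evidence of binding.

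The windows of 6 genes are shown because their values turn on glucose entry, phosphofructokinase control, lactate and vessel signals. Each runs 5′ to 3′ on the gene's own strand before the most upstream start in the table of promoters, with ACGTG or GCGTG and their reverse complements in capitals. CACGTG reads the same on both strands and holds 2 matches. The windows lie at chr4:119108495-119108744 (plus strand, *Slc2a1*), chr6:82774455-82774704 (minus, *Hk2*), chr2:11553930-11554179 (minus, *Pfkfb3*), chr7:46845554-46845803 (plus, *Ldha*), chr17:46032378-46032627 (minus, *Vegfa*) and chr7:110627407-110627656 (plus, *Adm*). For *Pfkfb3* and *Ldha* the annotated gene reaches farther upstream (to 11554071 and from 46842274), so their windows lie in part or wholly inside it. *Vegfa* held no match before this start but 2 before its other listed start, *Pfkfb3* held 1 and 3 likewise, and *Ldha* held 5 before the start shown.
Slc2a1: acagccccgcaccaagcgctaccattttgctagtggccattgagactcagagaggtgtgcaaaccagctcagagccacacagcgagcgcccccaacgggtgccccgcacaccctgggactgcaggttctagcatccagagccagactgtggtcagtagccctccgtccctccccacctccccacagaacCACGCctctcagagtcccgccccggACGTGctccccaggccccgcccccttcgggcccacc
Hk2: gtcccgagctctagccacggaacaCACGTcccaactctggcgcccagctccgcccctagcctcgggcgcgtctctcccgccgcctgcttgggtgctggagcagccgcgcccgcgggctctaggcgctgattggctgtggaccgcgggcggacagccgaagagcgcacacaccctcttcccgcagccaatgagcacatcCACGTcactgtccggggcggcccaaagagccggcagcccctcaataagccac
Pfkfb3: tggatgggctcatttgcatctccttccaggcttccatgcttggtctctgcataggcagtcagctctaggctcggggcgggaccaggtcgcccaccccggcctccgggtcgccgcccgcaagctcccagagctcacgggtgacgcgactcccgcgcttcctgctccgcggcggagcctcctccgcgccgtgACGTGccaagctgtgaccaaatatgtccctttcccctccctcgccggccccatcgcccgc
Ldha: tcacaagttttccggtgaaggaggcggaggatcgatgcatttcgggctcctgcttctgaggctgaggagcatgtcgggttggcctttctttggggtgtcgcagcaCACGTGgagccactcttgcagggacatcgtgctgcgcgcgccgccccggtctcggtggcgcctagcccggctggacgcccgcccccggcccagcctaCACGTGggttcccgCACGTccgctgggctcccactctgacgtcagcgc
Vegfa: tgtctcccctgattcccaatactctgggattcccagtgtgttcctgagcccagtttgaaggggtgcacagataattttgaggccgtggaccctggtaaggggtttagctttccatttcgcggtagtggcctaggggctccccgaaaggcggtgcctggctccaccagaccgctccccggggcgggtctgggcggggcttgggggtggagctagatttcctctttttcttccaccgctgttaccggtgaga
Adm: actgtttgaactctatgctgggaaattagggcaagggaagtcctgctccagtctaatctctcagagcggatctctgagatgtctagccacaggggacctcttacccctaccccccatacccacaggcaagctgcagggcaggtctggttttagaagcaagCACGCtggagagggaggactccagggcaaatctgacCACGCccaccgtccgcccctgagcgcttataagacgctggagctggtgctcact

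In WT cells LPS raised *Slc2a1* of glucose entry, *Hk2* of its phosphorylation and *Pfkfb3* of phosphofructokinase control, and lowered *Pfkfb4*. None of the 5 enzymes from glyceraldehyde phosphate to pyruvate passed the test at 2 h, whereas *Gapdh*, *Pgk1* and *Pkm* were higher with the replicate block and all 5 were lower after quantile normalization. At 2 h, 12 of the 34 genes were higher and 9 lower at an adjusted p below 0.05. Of all 11884 genes tested, 34.7% were higher and 36.8% lower at that time. At 1 h, 10 were higher and 4 lower (23.8% and 23.0% of all genes), and at 0.5 h 3 were higher and none lower (7.82% and 3.81%). The median difference of the 34 genes at 2 h was 0.05, against -0.02 over all genes. By a difference of at least 1 in size, 4 genes were higher and 3 lower at 2 h (7.72% and 3.29% of all genes). Here and below, ± is the SE and each adjusted p comes from limma, adjusted by Benjamini-Hochberg across all tested genes. The labels do not say that replicates came from separate animals, so the p values rest on the spread between libraries, which each fit shares over all its groups. The macrophage markers summed to 18.61 to 18.80 without LPS and 18.87 to 19.00 at 2 h, and the dendritic cell markers *Flt3* and *Zbtb46* to 3.28 to 3.46 and 5.03 to 5.41, and their part was not tested. *Flt3* stayed between 1.12 and 2.11 in every library. The dendritic cell sums, here and below, thus rested mainly on *Zbtb46* alone and do not show a change in dendritic cells.

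**Figure D1:**
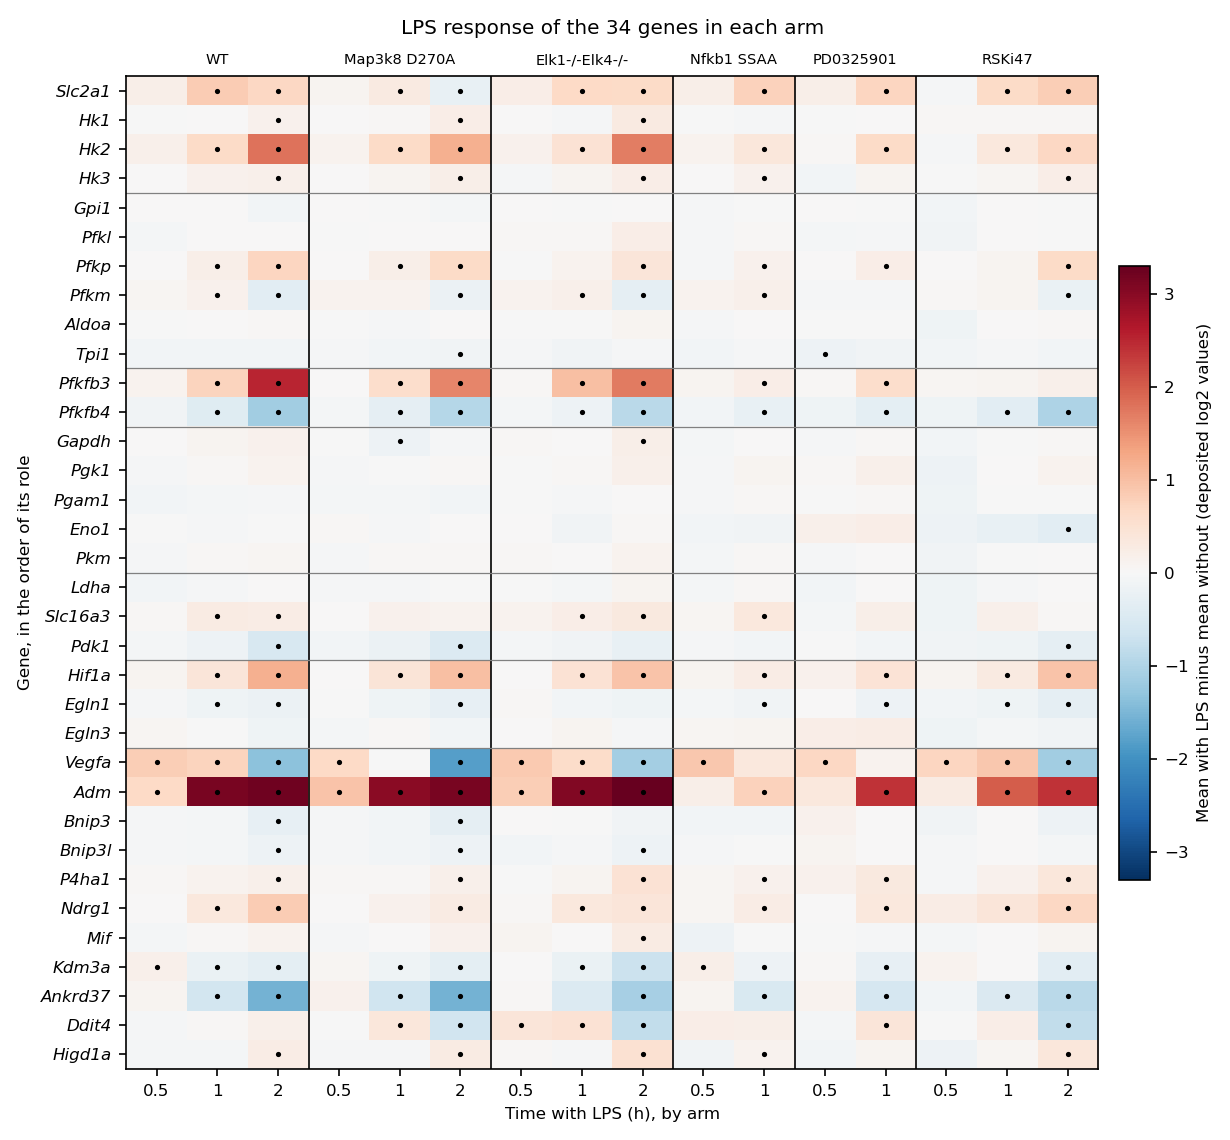
Differences between LPS-stimulated and unstimulated cells on the deposited log2 scale, with the 34 genes as rows in the order of their roles and the arms and LPS times as columns. Dots mark an adjusted p below 0.05, and the strongest colours are those of *Adm*, *Pfkfb3*, *Hk2*, *Vegfa*, *Ankrd37* and *Hif1a*.

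Of the 4 genes of glucose entry and phosphorylation, *Slc2a1* and *Hk2* were higher at 2 h under each scaling, and *Hk1* and *Hk3* on the deposited scale but not after quantile normalization. Over all genes 34.7% were higher. *Slc2a1* encodes GLUT1, the main glucose transporter of activated macrophages (chr4:119108745-119137330). It ran from 10.48 to 11.14 in unstimulated WT cells (median 10.71) and from 11.40 to 11.86 at 1 h (median 11.54), and was 11.42, 11.43, 11.39 and 11.44 at 2 h. Every stimulated library at these times lay above every unstimulated one. The difference was 0.84 ± 0.10 at 1 h (adjusted p = 3.96e-10) and 0.68 ± 0.11 at 2 h (5.4e-07), or 0.38 at 2 h after quantile normalization. *Hk2*, the inducible hexokinase (chr6:82725025-82774454), ran from 9.33 to 9.67 without LPS (median 9.38) and was 11.17, 11.27, 11.46 and 10.95 at 2 h. Its groups lay well apart, with a difference of 0.64 ± 0.08 at 1 h (3.43e-09) and 1.79 ± 0.09 at 2 h (4.93e-24). The other hexokinases moved less. *Hk1*, the housekeeping form, differed by 0.15 at 2 h (0.00128) and *Hk3*, a form of myeloid cells, by 0.16 (0.0312), but both turned to lower values, -0.14 and -0.24, when libraries were quantile normalized.

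Among the 34 genes, the largest change of a glycolytic gene at 2 h was that of *Pfkfb3* (chr2:11471430-11554071), whose enzyme makes the activator of phosphofructokinase. It ran from 9.63 to 9.79 in unstimulated cells (median 9.70), from 10.22 to 10.60 at 1 h (median 10.41), and was 12.19, 12.26, 12.62 and 11.81 at 2 h. The 3 times did not overlap, and the difference grew from 0.73 ± 0.11 at 1 h (adjusted p = 1.15e-07) to 2.52 ± 0.12 at 2 h (1.59e-25). *Pfkfb4*, a related enzyme, went the other way: 10.10 to 10.34 without LPS (median 10.22) and 9.08 or lower in each library at 2 h. It fell by 0.40 ± 0.04 at 1 h (7.23e-12) and by 1.16 ± 0.05 at 2 h (5.95e-29). Among the phosphofructokinases themselves, the platelet form *Pfkp* rose by 0.72 ± 0.04 at 2 h (6.47e-22), or 0.35 after quantile normalization, the muscle form *Pfkm* fell by 0.34 ± 0.06 (3.24e-06) after a higher value at 1 h (0.15, 0.0254), and the liver form *Pfkl* differed by 0.00, with a 95% interval of -0.20 to 0.20.

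The steps that follow, and the isomerase before them, gave small differences on the deposited scale. At 2 h *Gapdh* differed by 0.13 (95% interval -0.01 to 0.27), *Pgk1* by 0.12 (-0.06 to 0.30), *Pgam1* by -0.03 (-0.15 to 0.09), *Eno1* by -0.02 (-0.19 to 0.16) and *Pkm*, pyruvate kinase, by 0.06 (-0.08 to 0.19). Nor did *Gpi1* (-0.09, -0.21 to 0.04), *Aldoa* (0.04, -0.06 to 0.15) and *Tpi1* (-0.09, -0.20 to 0.03) pass it. *Ldha*, which makes lactate, was 13.82, 13.78, 13.94 and 13.99 at 2 h and 13.72 to 14.07 without LPS (median 13.83), so the groups overlapped (0.02, -0.13 to 0.17). These directions depended on the scaling: after quantile normalization, which moved the median of all genes at 2 h to -0.11, *Gapdh* (-0.27), *Pgk1* (-0.31), *Pkm* (-0.39), *Pgam1* (-0.40), *Ldha* (-0.40), *Aldoa* (-0.42), *Eno1* (-0.43), *Gpi1* (-0.48) and *Tpi1* (-0.48) were called lower. The split of the 34 genes then was 9 higher and 20 lower at 2 h (27.4% and 46.6% of all genes), 7 and 16 at 1 h (18.9% and 36.4%), and 3 and 1 at 0.5 h (7.14% and 10.4%). For the fate of pyruvate and lactate, the lactate exporter *Slc16a3* rose by 0.27 ± 0.07 at 1 h (adjusted p = 0.00167) and 0.25 ± 0.08 at 2 h (0.00556), and *Pdk1*, whose kinase inhibits pyruvate dehydrogenase, fell by 0.54 ± 0.11 at 2 h (1.25e-05). Neither call of *Slc16a3* was made after quantile normalization.

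*Hif1a*, the oxygen-regulated subunit itself (chr12:73901324-73947554), ran from 11.17 to 11.49 without LPS (median 11.32) and was 12.52, 12.33, 12.62 and 12.59 at 2 h, above every unstimulated library. The difference was 0.41 ± 0.06 at 1 h (adjusted p = 4.33e-08), or 0.26 after quantile normalization, and 1.18 ± 0.07 at 2 h (5.01e-23). Of the hydroxylases that mark HIF-1α for decay, *Egln1* (PHD2) fell by 0.13 ± 0.06 at 1 h (0.0433) and 0.19 ± 0.06 at 2 h (0.0065). Quantile normalization gave *Egln1* -0.22 at 1 h (0.000828) and -0.30 at 2 h. On the deposited scale its 1 h call was lost without WT replicate 4, 5, 6, 7 or 9 (adjusted p from 0.0575 to 0.111). *Egln3* (PHD3) differed by -0.14 at 2 h, with an interval of -0.47 to 0.19.

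Of the 11 hypoxia-response genes 4 were higher and 5 lower at 2 h, where 34.7% and 36.8% of all genes were. *Adm* encodes adrenomedullin, a vasodilator peptide (chr7:110627657-110629820). It ran from 3.57 to 3.89 without LPS (median 3.78), from 6.32 to 7.24 at 1 h (median 6.94) and was 6.94, 6.89, 7.18 and 6.86 at 2 h. The rise was 0.65 ± 0.16 at 0.5 h (adjusted p = 0.00234), 3.14 ± 0.16 at 1 h (1.15e-24) and 3.21 ± 0.17 at 2 h (2.21e-23). *Vegfa*, the main vessel growth factor (chr17:46016993-46032377), turned over within 2 h. Its values ran from 9.90 to 10.61 without LPS (median 10.38), 10.78 to 11.49 at 0.5 h (median 11.16), 10.78 to 11.41 at 1 h (median 11.07), and were 8.94, 8.97, 9.35 and 8.69 at 2 h. All early libraries lay above and all 2 h libraries below the unstimulated ones. The differences were 0.82 ± 0.11 at 0.5 h (7.55e-08), 0.73 ± 0.11 at 1 h (1.37e-07) and -1.35 ± 0.12 at 2 h (2.25e-14).

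Among the remaining targets, *Ndrg1*, a stress-response gene, rose by 0.34 ± 0.10 at 1 h (adjusted p = 0.00248) and 0.83 ± 0.11 at 2 h (9.11e-10). The mitochondrial gene *Higd1a* rose by 0.24 at 2 h (0.00017) and *P4ha1*, a collagen prolyl hydroxylase, by 0.18 (0.0316). After quantile normalization *Ndrg1* was not called at 1 h and differed by 0.46 at 2 h, and *P4ha1* was not called. *Ankrd37*, an ankyrin repeat gene, differed by -0.60 ± 0.17 at 1 h (0.00224) and -1.57 ± 0.19 at 2 h (1.01e-10). The histone demethylase *Kdm3a* was 0.16 ± 0.05 higher at 0.5 h (0.0109) and then fell by 0.21 ± 0.05 at 1 h (0.000164) and 0.33 ± 0.05 at 2 h (1.11e-07). Its 0.5 h call was lost without WT replicate 5 or 9 (0.054 and 0.0564). The mitophagy receptors *Bnip3* and *Bnip3l* fell by 0.28 ± 0.08 (0.00151) and 0.18 (0.00228) at 2 h, and *Bnip3l* by 0.51 after quantile normalization. *Ddit4*, an inhibitor of mTORC1, differed by 0.18 at 2 h (-0.05 to 0.41), and the cytokine *Mif* by 0.12 (-0.06 to 0.30). After quantile normalization *Ddit4* was called higher at 2 h, by 0.31 (0.0165). From 1 to 2 h *Vegfa* fell by 2.07 ± 0.12 (2.64e-21) while *Pfkfb3* rose by 1.80 ± 0.12 (5.64e-19) and *Hk2* by 1.15 ± 0.09 (6.29e-16).

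Same-numbered WT libraries deviated together, so the replicate block is given here. With it 4 genes were higher and 4 lower at 0.5 h (11.9% and 9.97% of all genes in that fit), 13 and 6 at 1 h (29.6% and 28.0%), and 16 and 11 at 2 h (37.4% and 40.6%), with no call lost. The additions at 0.5 h were *Slc2a1* (0.19, adjusted p = 0.00127), *Tpi1* (-0.09, 0.00598), *Pgam1* (-0.09, 0.0196), *Ldha* (-0.08, 0.0255) and *Pfkfb4* (-0.12, 0.0259). At 1 h they were *Gapdh* (0.09, 0.0237), *Hk3* (0.13, 0.000433), *P4ha1* (0.11, 0.00621), *Pdk1* (-0.16, 5.08e-06) and *Tpi1* (-0.08, 0.00572), and at 2 h *Gapdh* (0.16, 0.000527), *Pgk1* (0.17, 3.7e-06), *Mif* (0.11, 0.0349), *Pkm* (0.06, 0.0333), *Gpi1* (-0.06, 0.0391) and *Tpi1* (-0.07, 0.0236).

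**Figure D2:**
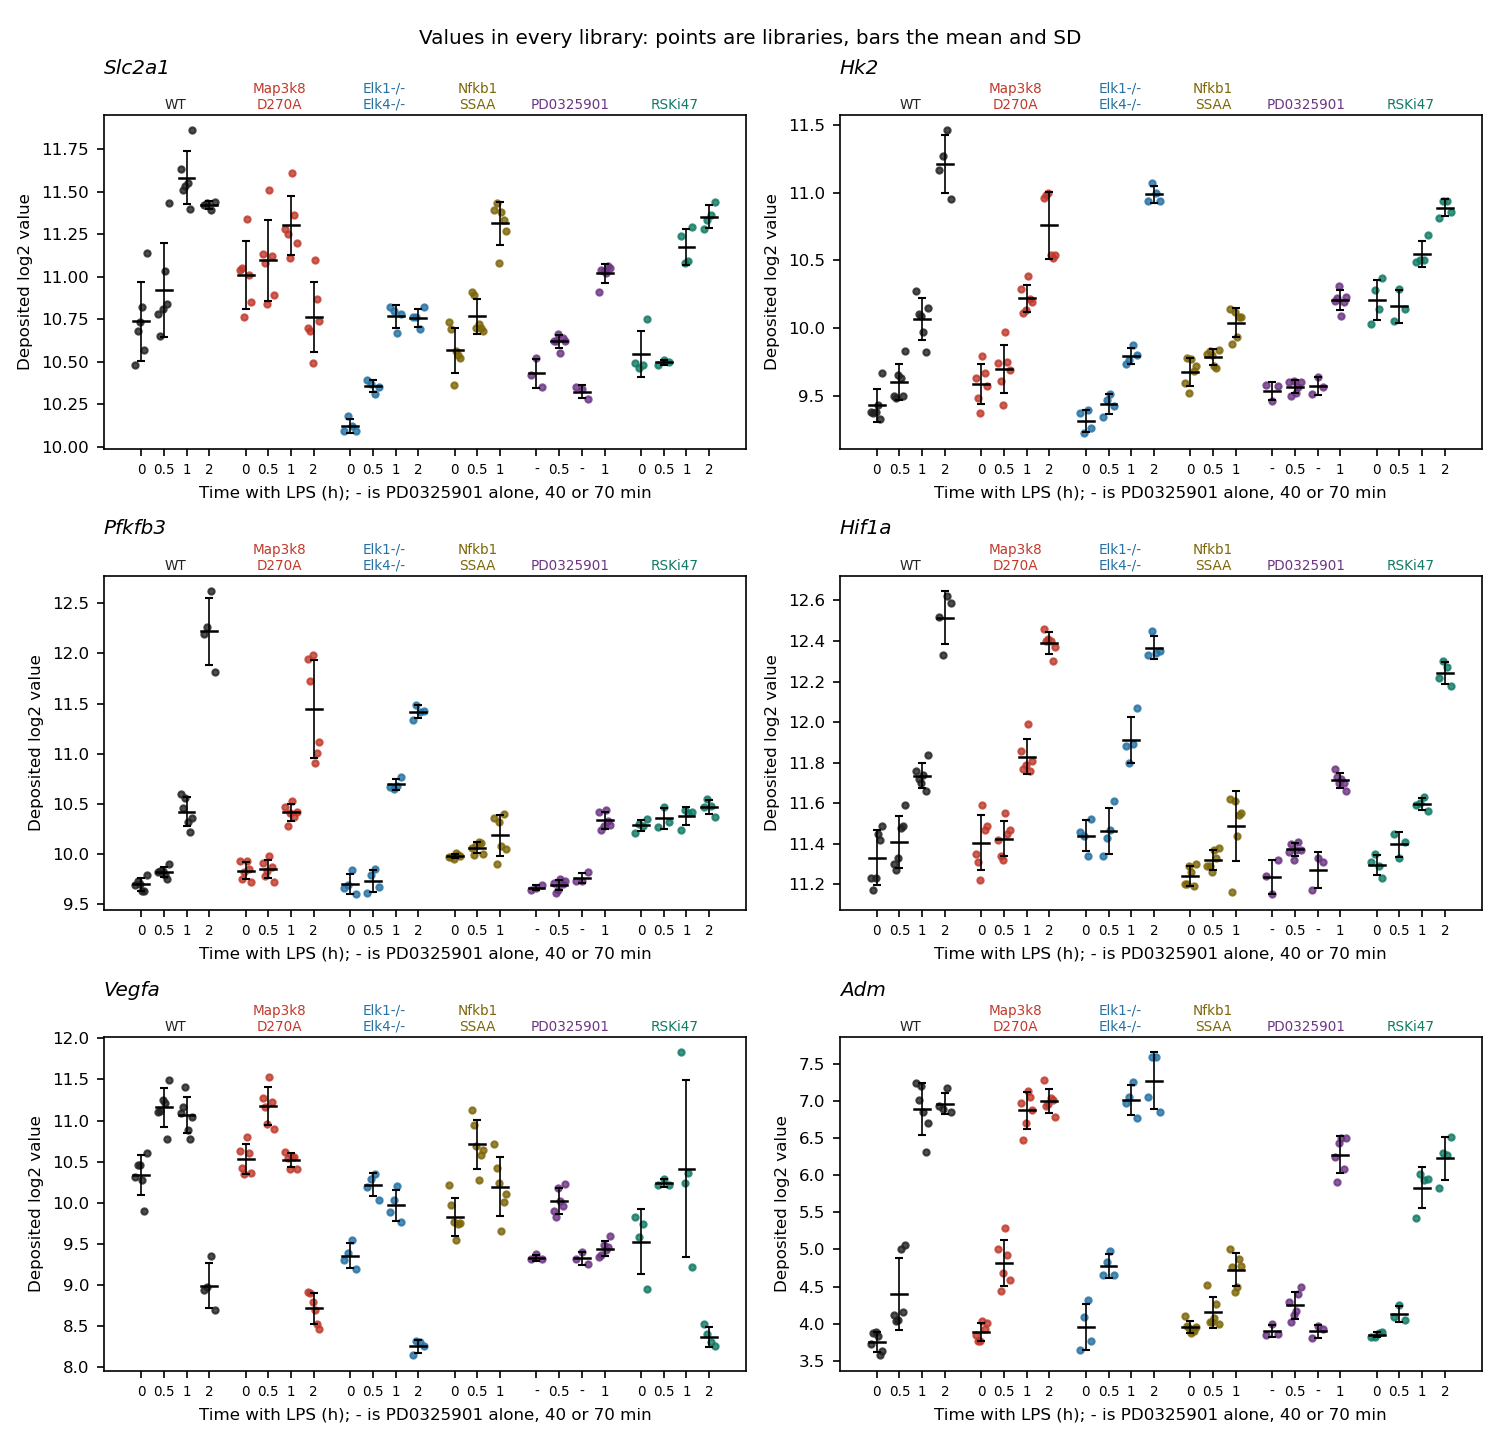
Deposited log2 values of *Slc2a1*, *Hk2*, *Pfkfb3*, *Hif1a*, *Vegfa* and *Adm* in every library (points), with the mean and SD of each group (bars), by arm and LPS time; "-" is PD0325901 alone for 40 or 70 min. *Pfkfb3* reached 11.81 to 12.62 in WT cells at 2 h and 10.37 to 10.55 under RSKi47, and *Adm* at 1 h lay between 4.43 and 5.01 in p105AA cells.

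TPL-2 is the kinase that links TLR4 to ERK1/2 in macrophages, and the comparison of *Map3k8* D270A/D270A with WT cells asks which genes need its activity. Before LPS the genes differed little: 1 of 34 was higher and none lower (0.606% and 0.833% of all genes), and at 0.5 h likewise 1 and none (0.480% and 0.892%). That gene was *Gapdh*, which ran from 13.64 to 14.00 in mutant (median 13.79) and 13.18 to 13.51 in WT cells (median 13.26) without LPS. The difference was 0.49 ± 0.06 at 0 h (adjusted p = 1.32e-07), 0.48 ± 0.06 at 0.5 h (1.41e-07), 0.24 ± 0.06 at 1 h (0.00574) and 0.31 ± 0.07 at 2 h (0.000335). At 0 h the median difference of the 34 genes was 0.13. WT replicate 9 decided the early counts: without it 6 genes were higher at 0 h, with *Slc2a1* at 0.35, *Pgk1* at 0.25, *Gpi1* and *Pgam1* at 0.19 and *Pfkp* at 0.12 beside *Gapdh* at 0.53, and 5 at 0.5 h, with none lower (1.93% and 1.35% of all genes at 0 h, 1.19% and 0.884% at 0.5 h). At 0.5 h leaving out WT replicate 5 gave 2 genes and mutant replicate 6 gave 3. No share of all genes is given for left-out fits other than that of WT replicate 9, so nothing is read from their counts.

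At 1 h 2 genes were higher and 2 lower in mutant cells (5.14% and 4.64% of all genes), or 7 and 1 after quantile normalization (5.41% and 3.57%). Without WT replicate 9 they were 7 and 2 (6.86% and 5.75%), with *Egln3* (0.47), *Gapdh* (0.28), *Eno1* (0.25), *Pgk1* (0.21), *Pgam1* (0.20), *Gpi1* (0.17) and *Pkm* (0.17) higher, and without WT replicate 4 or 5 or mutant replicate 5 there were 2 in all. *Vegfa* ran from 10.41 to 10.62 in mutant cells (median 10.55) and 10.78 to 11.41 in WT cells, without overlap, and was lower by 0.55 ± 0.11 (adjusted p = 0.000362). *Ndrg1* was lower by 0.31 ± 0.10 (0.0306), a call lost after quantile normalization and without WT replicate 4, 5 or 6 or mutant replicate 4 or 5 (0.0732 to 0.122), and *Pgam1* was higher by 0.16 ± 0.05 (0.0358), a call lost without any of WT replicates 4 to 8 or mutant replicates 2, 4 or 5 (0.0571 to 0.0955).

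By 2 h 5 genes were lower and 4 higher in mutant cells (13.1% and 14.6% of all genes), with a median of 0.07 against 0.01 over all genes. Macrophage markers summed to 18.67 to 18.86 in mutant and 18.87 to 19.00 in WT cells at 2 h, and the dendritic cell markers to 4.14 to 4.70 and 5.03 to 5.41, without overlap, and their part was not tested. The lower genes came from glucose entry, phosphofructokinase control and the stress targets. *Slc2a1* was 10.70, 10.68, 10.49, 11.10, 10.87 and 10.74 in mutant libraries, each below the WT libraries (11.39 to 11.44), and differed by -0.66 ± 0.11 (adjusted p = 9.4e-06). *Ddit4* was 6.00, 5.72, 5.75, 5.91, 5.88 and 5.80, below the WT values of 6.68, 6.82, 7.25 and 6.24, and differed by -0.90 ± 0.12 (1.21e-08). *Ndrg1* was 11.69, 11.75, 11.87, 11.53, 11.62 and 11.79, below the WT values of 12.35, 12.51, 12.41 and 12.18, and differed by -0.66 ± 0.11 (2.89e-06). These 3 genes did not overlap between genotypes, and the share of all genes without overlap was not taken in this or any other comparison. *Pfkfb3* was 11.94, 11.73, 11.98, 10.91, 11.01 and 11.12 in mutant cells, where the first 3 replicates lay above the other 3 and overlapped the lowest WT library. It differed by -0.77 ± 0.12 (1.64e-06). *Hk2* was 10.96, 10.98, 11.00, 10.54, 10.52 and 10.54, overlapping WT at its low end (10.95), and differed by -0.46 ± 0.09 (0.000135).

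Higher in mutant cells at 2 h, besides *Gapdh*, were *Pfkfb4* (0.23 ± 0.05, adjusted p = 0.000137), *Eno1* (0.26 ± 0.09, 0.0185) and *Gpi1* (0.18 ± 0.06, 0.0293). The *Gpi1* call was lost without WT replicate 4, 5, 6 or 7 or mutant replicate 1 or 5 (0.0501 to 0.08). That of *Eno1* was lost without WT replicate 5 or 7 (0.0519 and 0.0631), and when *Eno1* was summed with *Eno1b*, a near-identical copy between which the counting may split reads (0.18, 0.0804). *Hif1a* (-0.13, interval -0.26 to 0.01), *Vegfa* (-0.28, -0.53 to -0.03, 0.0885), *Egln3* (0.35, 0.02 to 0.68, 0.111), *Ldha* (0.08, -0.08 to 0.23) and *Adm* (0.04, -0.31 to 0.39) did not pass the test at 2 h.

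**Figure D3:**
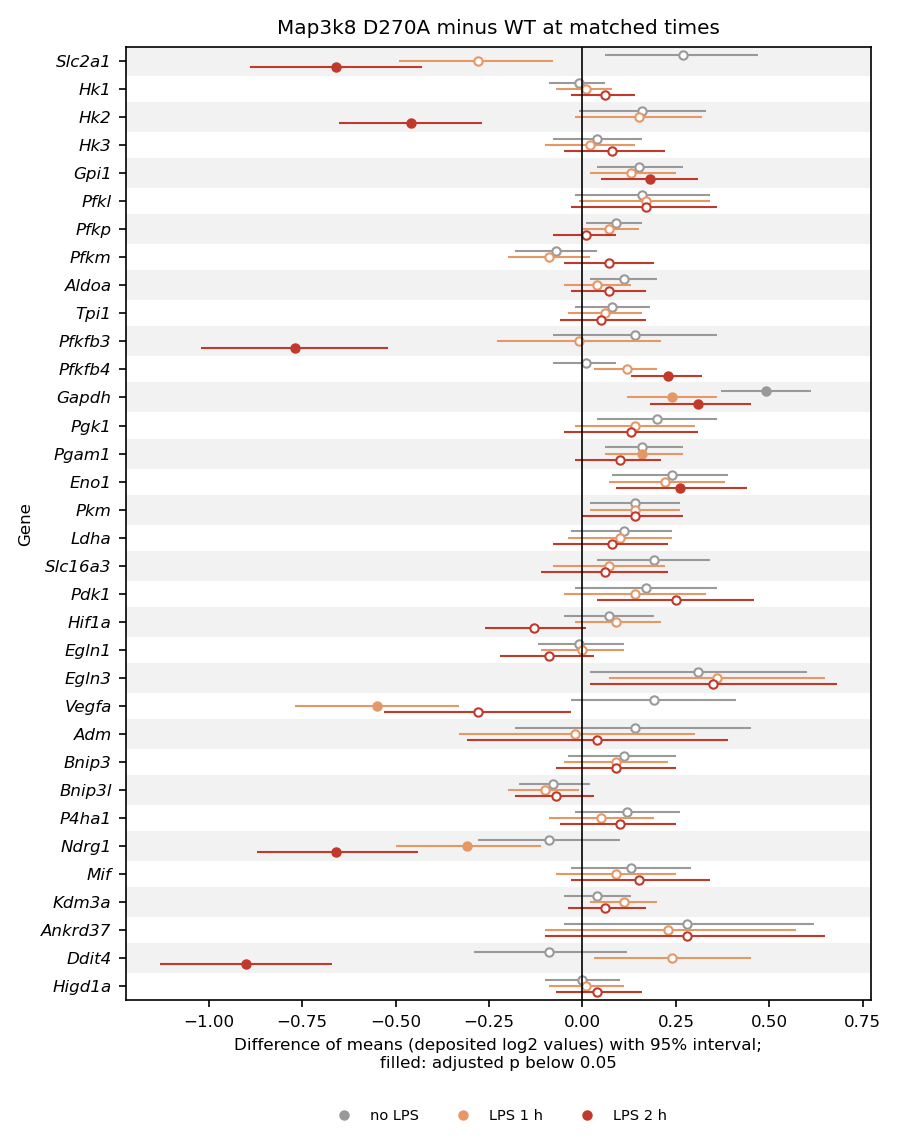
*Map3k8* D270A/D270A minus WT cells at 0, 1 and 2 h of LPS for each of the 34 genes on the deposited log2 scale, with 95% intervals; filled points have an adjusted p below 0.05. *Gapdh* lies to the right of 0 at all 3 times, and *Slc2a1*, *Pfkfb3*, *Ndrg1*, *Ddit4* and *Hk2* lie to the left at 2 h.

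The response to LPS was also compared from each genotype's own baseline. At 2 h the response of 6 genes was lower and of 1 higher in mutant than in WT cells (8.60% and 6.94% of all genes), or 11 and 2 with the replicate block within arms (14.2% and 14.2%). *Slc2a1* changed by 0.68 from 0 to 2 h in WT and fell by 0.24 ± 0.10 in mutant cells (adjusted p = 0.0312), a difference of -0.93 ± 0.15 (9.52e-06). The fall itself was not called without mutant replicate 1 or 2 (0.0853 and 0.0932). *Pfkfb3* rose by 1.61 ± 0.11 in mutant against 2.52 in WT cells (difference -0.91 ± 0.16, 4.34e-05), and *Hk2* by 1.17 against 1.79 (-0.62 ± 0.13, 0.000256). *Ddit4* fell by 0.63 in mutant cells (difference -0.82 ± 0.16, 9.15e-05), and the response of *Ndrg1* differed by -0.56 ± 0.14 (0.00371). *Vegfa* fell by 1.82 ± 0.11 in mutant cells, a difference of -0.47 ± 0.17 (0.044) that was lost without WT replicate 4, 5, 6 or 8 or mutant replicate 1, 4, 5 or 6 (0.0549 to 0.159). *Pfkfb4* fell less (0.22 ± 0.06, 0.0103). *Hif1a* rose in both (0.99 in mutant cells, difference -0.20, 0.133), as did *Adm* (3.12, difference -0.10). At 1 h *Vegfa* (-0.74 ± 0.16, 0.00209) and *Slc2a1* (-0.55 ± 0.14, 0.0242) responded less (1.30% of all genes lower and 0.724% higher), and the *Slc2a1* call was lost without WT replicate 4 or 6 or mutant replicate 1 or 2 (0.0555 to 0.119).

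The fit was also made separately for WT replicates 4 to 6 with mutant replicates 1 to 3, and for WT replicates 7 to 9 with mutant replicates 4 to 6, a division by replicate number that the labels do not name as a batch. Only 1 WT library of the latter set was at 2 h, so no p is given for its values. The 2 h difference in response was -0.59 (adjusted p = 0.00108) in the first and -0.95 in the latter set for *Pfkfb3*, -0.44 (0.00825) and -0.62 for *Hk2*, and -1.11 (2.1e-06) and -0.76 for *Slc2a1*. It was -1.02 (7.08e-05) and -0.27 for *Ddit4*, -0.55 (0.00108) and -0.45 for *Ndrg1*, -0.28 (0.181) and -0.47 for *Vegfa*, and 0.12 (0.32) and 0.31 for *Pfkfb4*.

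ELK1 and ELK4 are bound to promoters with serum response factor and are activated by ERK. *Elk1*-/-*Elk4*-/- cells differed from WT at these genes already without LPS, with 18 of 34 lower and 6 higher (24.6% and 27.2% of all genes) and a median of -0.23 against 0.01 over all genes. Lower were 4 of the 5 genes from glyceraldehyde phosphate to pyruvate, 3 of the 6 from hexose to triose phosphate, and 5 of the 11 hypoxia-response genes. *Vegfa* was 9.30, 9.39, 9.54 and 9.19 (WT 9.90 to 10.61), lower by 0.98 ± 0.12 (adjusted p = 3.74e-09). *Mif* was 10.21, 10.21, 10.24 and 10.13 (WT 10.77 to 11.12), lower by 0.79 ± 0.09 (4.15e-10), and *Pkm* was 14.41, 14.44, 14.39 and 14.47 (WT 14.81 to 15.18), lower by 0.56 ± 0.07 (9.39e-10). All 4 libraries lay below all 6 WT libraries for each of them. *Slc2a1*, at 10.09, 10.18, 10.12 and 10.09, was likewise below WT (-0.62 ± 0.11, 1.06e-05), and so were *Egln3* (-0.84 ± 0.16, 2.49e-05), *Ankrd37* (-0.80 ± 0.19, 0.000338), *Pfkl* (-0.69 ± 0.10, 7.25e-08) and *Higd1a* (-0.45 ± 0.06, 1.69e-09).

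Higher without LPS in *Elk1*-/-*Elk4*-/- cells were *Ndrg1* (0.42 ± 0.11, adjusted p = 0.000898), *Pfkp* (0.38 ± 0.04, 1.12e-10), *Hk1* (0.18 ± 0.04, 0.000409), *Hk3* (0.16 ± 0.07, 0.0406), *Bnip3l* (0.14, 0.0226) and *Kdm3a* (0.12, 0.0469). The last 3 calls were weak, and those of *Bnip3l* and *Kdm3a* were not made after quantile normalization. That of *Hk3* was lost without any of WT replicates 6 to 9 or mutant replicates 1 to 3 (0.0624 to 0.174), that of *Bnip3l* without WT replicate 8 or mutant replicate 2 or 3 (0.0552 to 0.103), and that of *Kdm3a* in 8 of 10 left-out fits, all but those without WT replicate 6 or mutant replicate 3 (0.0518 to 0.126). *Ldha* was lower by 0.23 ± 0.08 (0.0107). *Hk2* (-0.12, interval -0.30 to 0.07), *Pfkfb3* (0.00, -0.25 to 0.25), *Hif1a* (0.11, -0.02 to 0.24) and *Adm* (0.20, -0.15 to 0.55) did not pass the test. The counts lower and higher were 17 and 4 at 0.5 h (22.0% and 22.4% of all genes), 18 and 7 at 1 h (26.2% and 27.2%, and 18 and 3 after quantile normalization, at 27.1% and 25.7%) and 16 and 3 at 2 h (23.1% and 27.7%).

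Neutrophil genes moved with this genotype. Their 9 markers summed to 10.05 to 10.54 in unstimulated *Elk1*-/-*Elk4*-/- cells and 6.43 to 7.23 in WT cells, although *Ly6g* (-0.24 to 0.60) and *Elane* (-0.15 to 0.95) were near the bottom of the scale in every library. B cell markers summed to 3.42 to 3.95 against 3.05 to 3.22 in WT, and macrophage markers to 18.35 to 18.44 against 18.61 to 18.80, both without overlap. The part of these transcripts in the lower and higher genes was not tested.

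At 2 h *Slc2a1* was 10.76, 10.76, 10.69 and 10.82 in *Elk1*-/-*Elk4*-/- cells, still below every WT library (-0.66, adjusted p = 1.62e-05), yet it rose by 0.64 from its own start against 0.68 in WT (difference -0.04, interval -0.38 to 0.30). *Pfkfb3* was 11.34, 11.49, 11.42 and 11.43, below every WT library (-0.80 ± 0.13, 1.86e-06). *Ddit4* was 5.40, 5.69, 5.83 and 5.35, also below every WT library (-1.18 ± 0.13, 4.81e-11). *Vegfa* (-0.74, 9.37e-06) and *Egln3* (-0.74, 0.000466) remained lower. At 2 h neutrophil (10.73 to 11.05) and B cell markers (3.73 to 4.02) were above WT, and macrophage (18.64 to 18.71), dendritic cell (3.82 to 4.29) and glial markers (4.45 to 4.53) below it, without overlap, and their part was not tested.

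The response at 2 h was lower for 4 genes and higher for 2 in *Elk1*-/-*Elk4*-/- cells (8.76% and 8.17% of all genes), or for 6 and 6 with the replicate block within arms (14.0% and 16.3%). *Ddit4* fell by 0.82 from 0 to 2 h (difference from the WT response -1.0 ± 0.17, adjusted p = 1.92e-05), and *Pfkfb3* rose by 1.72 (difference -0.80 ± 0.18, 0.00104). *Kdm3a* (-0.38 ± 0.08, 0.000232) and *Pfkp* (-0.31 ± 0.06, 0.000279) were the other 2. *Pfkfb4* fell less (0.28 ± 0.07, 0.00335) and *Higd1a* rose more (0.28 ± 0.08, 0.0124), a call lost without mutant replicate 1 (0.0547). *Hk2*, at 10.94, 11.07, 11.00 and 10.94, rose by 1.68 (difference -0.11, interval -0.39 to 0.17). For *Hif1a* the difference was -0.26 (-0.45 to -0.06, 0.0617), for *Vegfa* 0.24 (-0.13 to 0.61) and for *Adm* 0.11 (-0.41 to 0.63), none past the test.

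p105, the product of *Nfkb1*, holds TPL-2 inactive until it is degraded, and its SSAA form is not degraded after LPS. Without LPS 8 of the 34 genes were higher and 10 lower than in WT (16.9% and 15.1% of all genes). Glial markers summed to 4.28 to 4.48 (WT 4.44 to 5.26) and macrophage markers to 18.71 to 19.11 (WT 18.61 to 18.80), both overlapping WT, and their part was not tested. *Hk3* was 13.48, 13.60, 13.55, 13.65, 13.71 and 13.82, all above WT (12.99 to 13.18), by 0.58 ± 0.05 (adjusted p = 1.28e-15). *Ndrg1* (0.39), *Bnip3l* (0.32), *Pfkfb3* (0.28, 0.00947), *Hk2* (0.25, 0.00375), *Hk1* (0.17), *Pfkm* (0.15) and *Pgam1* (0.15) were also higher, but *Pfkm* lost its call without WT replicate 7 (0.0886) and *Pgam1* without WT replicate 8 or mutant replicate 5 or 6 (0.0511 to 0.0711). *Vegfa* was lower by 0.51 ± 0.16 (0.0099), followed by *Pdk1* (-0.38), *Pfkl* (-0.37), *Slc16a3* (-0.32), *Mif* (-0.30), *P4ha1* (-0.28), *Eno1* (-0.26) and *Ldha* (-0.24, 0.00102). Summed with its copy, *Eno1* differed by -0.09 (0.308).

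*Adm* set this arm apart at 1 h of LPS. It ran from 3.87 to 4.10 without LPS (median 3.95) and was 5.01, 4.76, 4.43, 4.49, 4.87 and 4.78 at 1 h, against 6.32 to 7.24 in WT cells, with no overlap. The rise was 0.77 ± 0.14 (adjusted p = 8.8e-07), and its difference from the WT response was -2.37 ± 0.19 (1.64e-18). *Pfkfb3* was 10.36, 9.90, 10.32, 10.08, 10.40 and 10.05 at 1 h from 9.95 to 10.01, a rise of 0.21 (0.0445) that was not called without replicate 1, 3 or 5 (0.142 to 0.158). Its response differed by -0.52 ± 0.12 (0.00269). Without the replicate 2 library at 1 h these differences were -2.38 (8.73e-18) and -0.46 (0.0124). The responses of 2 genes were thus lower and of none higher at 1 h (4.30% and 1.77% of all genes). *Slc2a1* rose by 0.75 (difference -0.10), *Hk2* by 0.37 (-0.28, 0.085) and *Hif1a* by 0.25 (-0.16, 0.246), and *Vegfa* differed by -0.36 in response (-0.81 to 0.09). Same-numbered p105AA libraries also deviated together. With the replicate block 3 were lower and 2 higher (7.52% and 4.10%), adding *Hk2* (-0.28, 0.0426), *Pfkfb4* (0.16, 0.0165) and *Higd1a* (0.17, 0.0483). At the level of 1 h itself 7 genes were higher and 13 lower than in WT (20.5% and 21.9% of all genes), among them *Adm* (-2.17 ± 0.14, 4.08e-26), *Vegfa* (-0.87, 4.07e-06), *Slc2a1* (-0.27, 0.0063), *Hif1a* (-0.25, 5.29e-05) and *Pfkfb3* (-0.24, 0.0234), the last lost without WT replicate 4 or 6 or mutant replicate 2, 4 or 6 (0.0528 to 0.11). Glial markers summed to 4.07 to 4.57 in p105AA and 4.62 to 5.11 in WT cells at 1 h, and their part was not tested.

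PD0325901 stops MKK1/2 from activating ERK1/2. Given alone for 10 min it left no gene of the 11971 tested past limma's adjusted p (0%), against 245 at an unadjusted p below 0.05 and 1 with the replicate block, none of them among the 34. Of the followed genes *Vegfa* was 9.45, 9.48 and 9.46 with the inhibitor and 9.50, 9.41 and 9.41 with DMSO, a difference of 0.03 with an interval of -0.42 to 0.48. The DMSO libraries themselves differed from unstimulated WT at 7 lower and 3 higher genes of the 34 (11.1% and 12.5% of all genes), with *Vegfa* lower by 0.90 ± 0.20 (adjusted p = 0.000314), *Ddit4* by 0.50 and *Egln3* by 0.49, and *Hk3* 0.38 higher. Neutrophil markers summed to 7.57 to 8.27 in DMSO and 6.43 to 7.23 in WT libraries, and glial markers to 4.29 to 4.41 and 4.44 to 5.26, and their part was not tested. *Egln3* lost its call without replicate 1, 2 or 3 of the DMSO and PD0325901 libraries (0.071 to 0.0864).

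With PD0325901 and 1 h of LPS, 6 genes were higher and 7 lower than in WT cells at 1 h (16.4% and 19.3% of all genes). *Vegfa* ran from 9.34 to 9.59 (median 9.44), below every WT library, by 1.62 ± 0.16 (adjusted p = 1.13e-14). *Slc2a1* ran from 10.91 to 11.06 (median 11.04), also below every WT library (-0.56, 3.91e-08), and *Adm* from 5.91 to 6.51 (median 6.34), overlapping WT (-0.61, 0.000181). Against the inhibitor alone for 70 min, 1 h of LPS raised *Adm* by 2.38, *Slc2a1* by 0.70, *Hk2* by 0.64, *Pfkfb3* by 0.57 and *Hif1a* by 0.44, and *Vegfa* differed by 0.12 (0.67). The response of 1 gene, *Adm*, was lower than in WT (-0.76 ± 0.21, 0.0234) and of none higher (2.48% and 1.10% of all genes). With the replicate block within arms 3 were lower and 1 higher (4.92% and 2.73%), namely *Adm* (-0.85, 0.000807), *Vegfa* (-0.66, 0.0125), *Pfkm* (-0.21, 0.0292) and *P4ha1* (0.19, 0.00918). Same-numbered PD0325901 libraries did not all deviate together, with mean correlations by number from -0.04 to 0.30. Without the block the *Adm* call was lost without WT replicate 4 or PD0325901 replicate 1, 2 or 3 (0.0681 to 0.192), and after quantile normalization no gene passed. For *Vegfa* the difference was -0.61, with an interval of -1.11 to -0.11 (0.214), on the same shared spread. The inhibitor was not followed to 2 h. Neutrophil markers summed to 8.28 to 8.82 with PD0325901 at 1 h of LPS (WT 6.46 to 7.77) and glial markers to 4.25 to 4.44 (WT 4.62 to 5.11), and their part was not tested.

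RSK kinases act below ERK. RSKi47 cells without LPS had 15 of the 34 genes lower and 6 higher than WT (26.3% and 26.8% of all genes), with a median of -0.12 against 0.01. *Hk2* was 10.03, 10.28, 10.14 and 10.37 and *Pfkfb3* 10.21, 10.30, 10.28 and 10.35, each above every WT library, by 0.78 ± 0.08 (adjusted p = 1.56e-14) and 0.59 ± 0.10 (3.31e-07). *Pfkm* (0.23), *Hk3* (0.17), *Kdm3a* (0.14) and *Hk1* (0.13) were the other higher genes, *Kdm3a* not without RSKi47 replicate 1 (0.06) or after quantile normalization, where *Hk1* differed by 0.08. *Tpi1* was 12.77, 12.70, 12.73 and 12.78, below every WT library (13.21 to 13.41), by 0.54 ± 0.05 (6.38e-15). *Ankrd37* (-0.83 ± 0.16, 6.98e-06), *Vegfa* (-0.81 ± 0.18, 7.08e-05), *Pgk1* (-0.43), *Ldha* (-0.39, 1.14e-06), *Ddit4* (-0.38) and *Mif* (-0.33) were lower too. *Eno1* differed by -0.73 ± 0.09 (8.15e-11) alone and by -0.19 (0.0245) when summed with its copy. Stromal markers summed to 4.24 to 9.04 in these libraries against 2.97 to 3.34 in WT, neutrophil markers to 7.52 to 7.84 and glial markers to 4.30 to 4.31, and their part was not tested. The stromal sums under RSKi47, here (median 4.83) and at 2 h, rested mainly on *Col1a1*. *Col3a1* and *Dcn* reached at most 2.29 and -0.63 in any library.

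**Figure D4:**
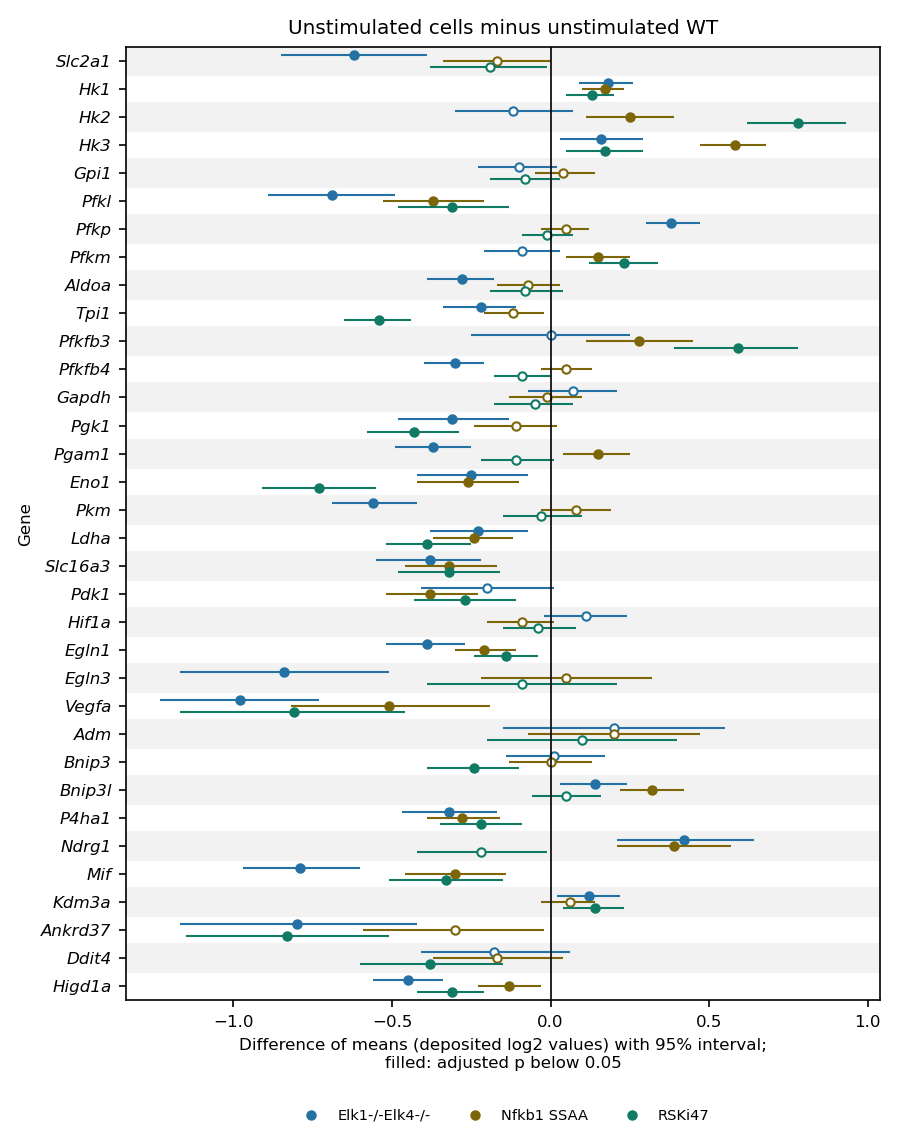
Unstimulated dKO, p105AA and RSKi47 cells minus unstimulated WT cells for each of the 34 genes on the deposited log2 scale, with 95% intervals; filled points have an adjusted p below 0.05, and RSKi47 cells had the inhibitor without LPS. *Vegfa* lies to the left of 0 in all 3 arms, and *Hk2* and *Pfkfb3* lie to the right under RSKi47.

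Of the 2 h responses of the 34 genes in any arm, that of *Pfkfb3* under RSKi47 differed most from WT. The gene stood at 10.47, 10.55, 10.48 and 10.37 at 2 h of LPS, nearly where it stood without LPS, and changed by 0.18 (adjusted p = 0.138) where WT cells rose by 2.52. The difference in response was -0.63 ± 0.14 at 1 h (0.000997) and -2.34 ± 0.15 at 2 h (2.91e-25), and at 2 h the level lay below every WT library (-1.75 ± 0.11, 1.37e-26). *Hk2* was 10.81, 10.94, 10.94 and 10.86 at 2 h, a rise of 0.69 from its raised start, so that the response differed by -1.10 ± 0.12 (8.65e-13) and the level by only -0.32 (0.000956). *Ddit4* was 5.18, 5.26, 5.21 and 5.91, below every WT library, with a difference in response of -0.98 ± 0.17 (3.36e-06).

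*Adm* under RSKi47 was 5.42, 6.02, 5.94 and 5.95 at 1 h and 5.83, 6.30, 6.27 and 6.52 at 2 h, below every WT library at each time. Its response differed by -1.15 ± 0.21 at 1 h (adjusted p = 7.58e-05) and -0.83 ± 0.23 at 2 h (0.00357). Without RSKi47 replicate 4 the 2 h differences were -2.29 for *Pfkfb3* (1.47e-21), -1.04 for *Hk2* (2.69e-10), -1.15 for *Ddit4* (1.04e-07) and -0.92 for *Adm* (0.00399). *Hif1a* (-0.23 ± 0.09, 0.0402) and *Ankrd37* (0.69 ± 0.24, 0.0266) also passed at 2 h, but *Hif1a* lost its call without WT replicate 4, 6 or 7 or any RSKi47 replicate (0.0561 to 0.18), and *Ankrd37* without WT replicate 6 or RSKi47 replicate 3 or 4 (0.062 to 0.0824).

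In all, 2 responses were lower and none higher at 1 h under RSKi47 (3.27% and 2.26% of all genes), and 5 lower and 1 higher at 2 h (10.4% and 10.6%), or 8 and 5 at 2 h with the replicate block within arms (15.4% and 16.8%). At the level of 2 h itself 16 genes were lower and 4 higher than in WT (24.6% and 27.5%). Neutrophil (7.94 to 8.60) and stromal markers (4.20 to 5.45) then lay above WT, and dendritic cell (4.64 to 4.86), glial (4.15 to 4.34) and B cell markers (3.06 to 3.11) below it, and their part was not tested. *Slc2a1* rose by 0.80 under RSKi47, and its response differed by 0.12, with an interval of -0.15 to 0.40. The response of *Vegfa* differed by 0.19 (-0.33 to 0.72) and that of *Ldha* by -0.01. Replicates disagreed on *Vegfa* at 1 h, where the values were 11.83, 10.24, 10.36 and 9.22.

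**Figure D5:**
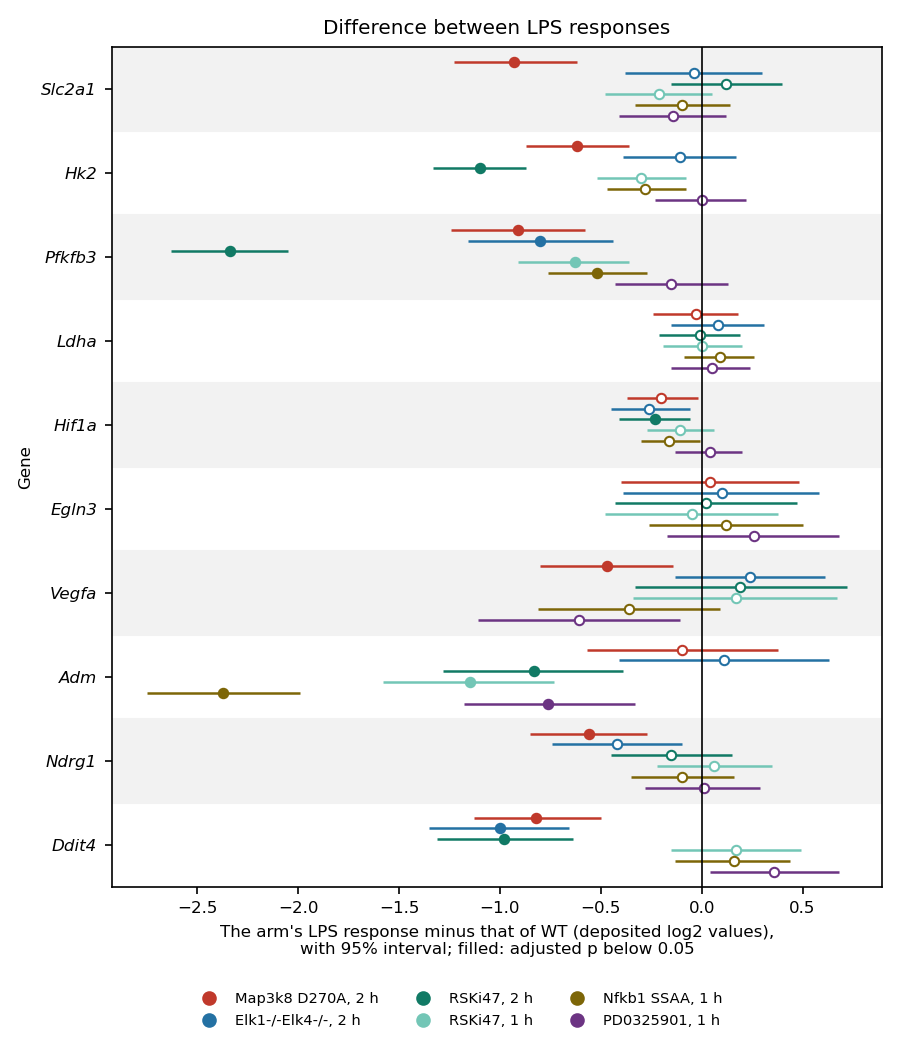
Each arm's LPS response minus the WT response for 10 genes on the deposited log2 scale, with 95% intervals and filled points at an adjusted p below 0.05. Points of *Pfkfb3* lie to the left of 0 and are filled in all arms but PD0325901, which is shown at 1 h only, and *Adm* lies farthest to the left in *Nfkb1* SSAA/SSAA cells at 1 h. At 1 h, not plotted for them, *Pfkfb3* was not called in *Map3k8* D270A/D270A or *Elk1*-/-*Elk4*-/- cells either.

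Side by side, and with the WT libraries shared by every difference, the genes drew different patterns over the arms. For *Pfkfb3* the 2 h difference in response was -0.91 in *Map3k8* D270A/D270A, -0.80 in *Elk1*-/-*Elk4*-/- and -2.34 in RSKi47 cells. For *Ddit4* it was -0.82, -1.0 and -0.98, for *Hk2* -0.62, -0.11 and -1.10, for *Slc2a1* -0.93, -0.04 and 0.12, and for *Adm* -0.10, 0.11 and -0.83. At the last time of each of the 5 arms *Ldha* differed in response by -0.03 to 0.09 and *Egln3* by 0.02 to 0.26, with no call, the widest intervals being -0.15 to 0.31 for *Ldha* and -0.39 to 0.58 for *Egln3*, both in *Elk1*-/-*Elk4*-/- cells. These arms were not tested against each other.

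Other genes of these pathways were taken from 4 separate lists by function. At 2 h of LPS in WT cells, 6 of 20 other glycolysis and carbohydrate genes were higher and 5 lower, 1 of 7 pentose phosphate genes was higher, 4 of 10 other genes of the HIF machinery were higher and 2 lower, and 9 of 22 other hypoxia-response genes were higher and 7 lower, where 34.7% of all genes were higher and 36.8% lower. *Edn1*, the vasoconstrictor endothelin, rose by 6.67 ± 0.16 (adjusted p = 2.58e-39), *Nos2*, the inducible nitric oxide synthase, by 6.65 ± 0.45, and the lysosomal glucose transporter gene *Slc2a6* by 2.95 ± 0.14. *Narf* (-1.63), *Angptl4* (-1.15), *Pfkfb2* (-0.79) and *Pdk2* (-0.58) were lower. The 2 h responses of *Edn1* (-1.56 ± 0.21, 1.87e-07), *Ak4* (-0.86, 0.0076), *Bhlhe40* (-0.56, 0.00171) and *Tigar* (-0.40, 0.000124) were lower in *Map3k8* D270A/D270A cells, and those of *Cited2* (0.27) and *Bpgm* (0.23) higher. Under RSKi47 the 2 h responses of *Edn1* (-1.57, 5.71e-10), *Slc2a6* (-0.75, 0.000758) and *Pgf* (-0.46) were lower, and those of *Cited2* (0.82, 1.3e-07), *Narf* (0.60) and *Pfkfb2* (0.30) higher.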

How the data were processed

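RNA of BMDMs was sequenced in libraries that the labels put into 25 groups. Per the methods and the submitters' processing notes, the authors mapped strand-specific single-end reads to mm10 with STAR, estimated counts per RefSeq gene with RSEM (versions 2.5.1b and 1.2.29 in the notes) and used DESeq2 1.10.1. The values the authors deposited are normalized, on a log2 scale and run from -2.40 to 19.81; the sources used here do not give the transformation. They hold no counts, and the methods give only a typical read yield. The depth of each library is thus unknown, and precision rests on the spread between replicates. A single value above 25, of Fosb, was treated as missing.

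Groups were compared with limma 3.58.1 (R 4.3.3), its moderated test without a trend, and Benjamini-Hochberg adjustment. For WT, *Map3k8* D270A/D270A and the double mutant, 62 libraries were fitted together over 11884 genes that reached a linear 10 in 4 or more of them. The other arms were fitted with all libraries over 11971 genes, reaching that value in 3 or more. A gene was called at an adjusted p below 0.05. The fits were tested on simulated data. Marker levels are the log2 of summed linear values.

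In each comparison, genes past the threshold were named by size, at most 8 in each direction, with 8 genes (*Slc2a1*, *Hk2*, *Pfkfb3*, *Ldha*, *Hif1a*, *Egln3*, *Vegfa* and *Adm*) followed through every arm; other pathway genes were named only where they passed, at most 4 in each direction, and some are not reported here. The members and lists were chosen with earlier results of these data known. Deviations of same-numbered libraries from their group means correlated at 0.16 or more in every pair of WT times and 0.14 or more in every pair of p105AA times. The lowest correlations were 0.07 in *Map3k8* D270A/D270A, 0.07 in RSKi47, -0.22 in *Elk1*-/-*Elk4*-/- and -0.27 in PD0325901 cells. By these lowest values the numbers were taken to pair only WT and p105AA libraries. Mean correlations by number were 0.22 to 0.60 in *Map3k8* D270A/D270A and 0.23 to 0.66 in RSKi47 cells, near those in p105AA cells (0.26 to 0.58). Fits without the block may thus ignore a pairing in *Map3k8* D270A/D270A and RSKi47 cells. The replicate block within arms, listed as an alternative, was fitted in every arm. The labels gave no pairing between arms. Alternatives were other scalings and filters, an intensity trend, other library sets, the block, left-out replicates and, chosen after seeing the data, *Eno1* summed with *Eno1b* and the p105AA replicate 2 library at 1 h left out. Promoter windows, positions and motifs come from RefSeq tables of GRCm38.p6.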

Additional observations from a re-analysis of the deposited data

Results flagged for a closer look

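A library stood far from the others of its group in 8 of 160 tests of a gene in a group, where chance alone gives about 1 in 20. RSKi47 replicate 4 gave 4 of them. Without LPS its *Slc2a1* was 10.75 (others 10.46 to 10.49), its *Ldha* 13.63 (13.41 to 13.44) and its *Egln3* 7.10 (6.36 to 6.40), and at 1 h its *Hk2* was 10.69 (10.49 to 10.50). *Adm* was 5.42 in RSKi47 replicate 1 at 1 h (5.94 to 6.02 in the others). *Slc2a1* was 10.91 in PD0325901 replicate 1 at 1 h of LPS (11.02 to 11.06), *Hk2* was 9.67 in unstimulated WT replicate 9 (9.33 to 9.43), and *Egln3* was 5.66 in *Elk1*-/-*Elk4*-/- replicate 4 at 1 h (5.95 to 6.01).

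The response to LPS differed from that of WT cells by its own test in 26 cases, 22 lower and 4 higher. Over the 13 comparisons of responses these are 4.98% and 0.905% of the members' tests, against 3.16% and 2.53% of those of all genes. With the replicate block within arms 38 were lower and 18 higher (8.60% and 4.07%, against 5.30% and 4.97%). Those of *Map3k8* D270A/D270A cells were *Slc2a1* (-0.55) and *Vegfa* (-0.74) at 1 h, and *Slc2a1* (-0.93), *Hk2* (-0.62), *Pfkfb3* (-0.91), *Pfkfb4* (0.22), *Vegfa* (-0.47), *Ndrg1* (-0.56) and *Ddit4* (-0.82) at 2 h. In *Elk1*-/-*Elk4*-/- cells at 2 h they were *Pfkp* (-0.31), *Pfkfb3* (-0.80), *Pfkfb4* (0.28), *Kdm3a* (-0.38), *Ddit4* (-1.0) and *Higd1a* (0.28). In p105AA cells at 1 h they were *Pfkfb3* (-0.52) and *Adm* (-2.37), and with PD0325901 at 1 h *Adm* (-0.76). Under RSKi47 they were *Pfkfb3* (-0.63) and *Adm* (-1.15) at 1 h, and *Hk2* (-1.10), *Pfkfb3* (-2.34), *Hif1a* (-0.23), *Adm* (-0.83), *Ankrd37* (0.69) and *Ddit4* (-0.98) at 2 h. What underlies these values was not tested.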

How the results depend on the processing

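Counts of called genes among the 34 moved most with the scaling, the replicate block and the library set, and the causes were not tested. No share of all genes stands beside the counts of this section. They show how far the calls moved, not how the 34 genes compare with others. With quantile normalization the counts were 23 for WT cells at 1 h of LPS, 2, 4 and 8 for *Map3k8* D270A/D270A against WT at 0, 0.5 and 1 h, and 0 for the response with PD0325901 at 1 h. The directions of *Ldha* turned with it at 2 h in WT (-0.40), *Elk1*-/-*Elk4*-/- (-0.34) and RSKi47 cells (-0.33), and at 1 h in p105AA (-0.18) and PD0325901 cells (-0.27), as did those of *Hk1* from 1 to 2 h in WT (-0.01), and of *Hk1* (-0.03) and *Ndrg1* (-0.03) at 2 h in *Map3k8* D270A/D270A cells. *Bnip3l* turned from 1 to 2 h in WT cells (0.01) in the set of WT replicates 7 to 9 and mutant replicates 4 to 6. Quantile normalization moved the median of all genes at 2 h to -0.11 in WT and -0.10 in *Map3k8* D270A/D270A cells.

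With the replicate block within arms, 8 genes were called in WT cells at 0.5 h, and the responses that differed numbered 13 (11 lower, 2 higher) for *Map3k8* D270A/D270A, 12 (6 and 6) for *Elk1*-/-*Elk4*-/- and 13 (8 and 5) for RSKi47 at 2 h, 5 (3 and 2) for p105AA and 4 (3 and 1) for PD0325901 at 1 h, with no call lost. Deviations of WT and *Map3k8* D270A/D270A libraries with the same number 4, 5 or 6 correlated at means of -0.21, -0.11 and -0.38. Nothing is therefore read from the block across arms, which share only numbers. With it 20, 22, 20 and 19 genes differed between *Map3k8* D270A/D270A and WT cells at 0, 0.5, 1 and 2 h. With all libraries in 1 fit 2 genes differed at 0.5 h, and 10 responses of *Elk1*-/-*Elk4*-/- cells at 2 h. With only the compared arms fitted, 2 responses differed under PD0325901.

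Within WT replicates 4 to 6 and mutant replicates 1 to 3, 6, 4 and 10 genes differed at 0, 0.5 and 1 h. Within the other set 0 and 1 differed at 0 and 1 h. Its 2 h counts, 2 genes, 2 responses and 12 genes for WT cells, rest on 1 WT library assumed to vary like the other groups, and nothing is read from them. Asking for a difference of at least 1 left 0, 1 and 7 genes in WT cells at 0.5, 1 and 2 h, 0 at each time for *Map3k8* D270A/D270A against WT and for its 2 h response, 0, 0, 1 and 1 for *Elk1*-/-*Elk4*-/- and 1 for its 2 h response, 1 for the level and 1 for the response of p105AA, 1 and 0 for those of PD0325901, and 3 and 2 for those of RSKi47.

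Leaving out each replicate in turn gave 2 to 4, 12 to 14 and 19 to 23 genes in WT cells at 0.5, 1 and 2 h, and 1 to 6, 1 to 5, 2 to 9 and 8 to 11 for *Map3k8* D270A/D270A against WT at 0, 0.5, 1 and 2 h. It gave 20 to 23, 19 to 22, 22 to 25 and 16 to 20 for *Elk1*-/-*Elk4*-/-, 19 to 22 for p105AA, 11 to 15 for PD0325901 and 18 to 20 for RSKi47. The responses that differed numbered 6 to 7 for *Map3k8* D270A/D270A, 5 to 7 for *Elk1*-/-*Elk4*-/-, 2 to 3 for p105AA, 0 to 1 for PD0325901 and 4 to 7 for RSKi47, and PD0325901 against DMSO gave 0 throughout. Depth could not be read from these values, so low genes such as *Adm* have no counting interval.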

Other observations

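Beyond the members, other listed genes differed in their LPS response from WT in the remaining arms. In *Elk1*-/-*Elk4*-/- cells at 2 h *Edn1* (-0.66), *Bhlhe40* (-0.47), *Insig2* (-0.33) and *Mxi1* (-0.30) were lower, and the lactate transporter gene *Slc16a1* (0.50), *Cited2* (0.47), *Pdk3* (0.44) and *Bpgm* (0.30) higher. In p105AA cells at 1 h the circadian repressor gene *Bhlhe40* (-1.01, limma, adjusted p = 4.78e-12) and *Cited2* (-0.34) were lower, and *Angptl4* (0.66) and *Vhl* (0.19) higher. With PD0325901 at 1 h *Bhlhe40* (-0.66) and *Arnt2* (-0.56) were lower, and *Edn1* (0.95), *Pgf* (0.56), *Tceb1* (0.23) and *Rpia* (0.20) higher.

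*Eno1b*, the near-identical copy of *Eno1*, is given here with its sum with *Eno1*. It was 12.49 ± 0.23 (SD, n = 6) in unstimulated WT, 12.83 ± 0.22 (SD, n = 4) in RSKi47 and 11.87 ± 0.16 (SD, n = 4) in *Elk1*-/-*Elk4*-/- cells. The sum of both was lower than in WT by 0.40 in *Elk1*-/-*Elk4*-/- cells (limma, adjusted p = 3.2e-05) and by 0.19 in RSKi47 cells (0.0245) without LPS, and by 0.31 in RSKi47 cells at 2 h (0.00084). In the WT LPS responses the sum was called at no time.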
